A study of Mus musculus with 30 samples.

Results

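The NF-kappaB subunits and their inhibitors were followed in mouse dendritic cells during a challenge with the mould Aspergillus fumigatus. The set was chosen by gene name, with earlier results of these data known and with no threshold on measured values: the 5 subunit genes Rel, Rela, Relb, Nfkb1 and Nfkb2 and the 5 inhibitor genes Nfkbia, Nfkbib, Nfkbie, Nfkbid and Nfkbiz, 10 of the 54532 genes of the count table. All 10 were among the 12393 genes that passed the filter on low counts. The KO cells came from nlrx1 deficient mice and the WT cells from wildtype mice. For both, marrow of the tibia and femur was cultured for 6 days with GM-CSF, a myeloid growth factor under which dendritic cells form, and plated at 500000 cells per well. Viable conidia (spores) of the strain AF29 were then added at 500000 per well, and RNA was taken before their addition (0 h) and 3, 6, 9 and 12 h after it, giving 10 groups with 3 libraries each. Age, sex, strain background and the form of the Nlrx1 deletion are not stated. The labels leave unsaid whether the 3 libraries are separate animals or cultures, and p-values therefore cover only the spread between libraries, possibly a technical one.

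NF-kappaB is a family of dimeric transcription factors that rests in the cytoplasm, held there by inhibitor proteins called IkappaB. When a receptor for microbes or cytokines signals, a kinase complex marks the IkappaB protein for destruction and the dimer enters the nucleus. Several IkappaB genes and subunit genes are themselves targets of NF-kappaB, so that their transcripts are commonly read as a sign of recent activity, while the release of a dimer needs no new transcript. In dendritic cells the pathway acts downstream of Toll-like receptors and of C-type lectin receptors that bind fungal cell walls, and it is known for driving cytokine genes and maturation.

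Library totals ran from 1722384 to 3509429 counts, with a median of 2492886. Nlrx1, the targeted gene, had 0 to 14 counts in the KO libraries and 13 to 46 in the WT libraries, and averaged 2.49 ± 1.75 CPM (counts per 1000000 of the scaled library total) in KO and 9.32 ± 2.93 CPM in WT (SD, n = 15 each). Its log2 difference was -1.87 ± 0.28 (SE, edgeR adjusted p = 1.71e-05). All 11 genes of the dendritic cell marker list had a count, led by Itgax at 1164 to 1409 CPM and Cd74 at 625 to 1481 CPM, whereas Flt3, Cd209a and Siglech had a median of 0 CPM. Their sum was 2389.5 to 2770.0 CPM in WT at 12 h. That lay below WT at 0 h (3050.2 to 3213.7 CPM) and KO at 12 h (3028.0 to 3126.3 CPM), without overlap. In KO at 0 h it was 3123.2 to 3430.8 CPM. The part of this shift in the changes at 12 h was not tested. Summed macrophage markers (10 of 10 genes with a count) reached 1391 to 1626 CPM in KO and 1656 to 1938 CPM in WT, without overlap between the genotypes. Summed neutrophil markers (10 of 10 with a count) reached 190.1 to 541 CPM in KO and 375 to 975 CPM in WT. S100a9, S100a8, Ngp and Ltf made up most of this sum, with medians of 195, 87.5, 86.2 and 41.5 CPM. Csf3r had a median of 15.7 CPM, Camp of 2.82 CPM and Ly6g of 0.392 CPM, and Mpo, Elane and Retnlg of 0 CPM. The 6 T and B cell markers together stayed at or under 8.8 CPM in KO and 5.26 CPM in WT. Small RNA genes (snoRNA, snRNA, scaRNA, miRNA and other small classes) took 3.07 to 4.28% of the counts of the KO libraries, against 5.48 to 6.80% in WT from 0 to 9 h and 3.82 to 4.01% in WT at 12 h. In bulk RNA, fewer cells expressing a gene and less of its RNA per cell cannot be told apart.

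Promoters of genes of the set were examined for the sequence that NF-kappaB dimers are known to bind. The reference promoters used (RefSeq, GRCm38.p6) held a usable entry for 7 of the 10 genes. These gave 11 windows of 250 bases before a start, 3 each for Nfkb2 and Nfkbid. Nfkb1, Relb and Nfkbiz had no usable entry there, so their promoters were not examined. The kappaB consensus (GGGRNNYYCC, with R for A or G, Y for C or T and N for any base) was searched on both strands. Overlapping matches were joined into 1 run. It was found in 7 of the 11 windows, while 7.3% of all 32851 promoters of that length held it. Windows of the same gene are not independent, and some of those of Nfkb2 overlap. By gene, 5 of the 7 had it in at least 1 window (Nfkb2, Rel, Nfkbia, Nfkbie and Nfkbid), a count to which the share per promoter does not apply. Below stand windows of a subunit gene and of an inhibitor gene that rose strongly (Rel and Nfkbia), a window with 2 runs (Nfkb2), and those of Rela and Nfkbib, which held none. Sequences run 5′ to 3′ on the strand of the gene, and capitals mark the matches.
Rel (chr11:23770970-23771219, minus strand): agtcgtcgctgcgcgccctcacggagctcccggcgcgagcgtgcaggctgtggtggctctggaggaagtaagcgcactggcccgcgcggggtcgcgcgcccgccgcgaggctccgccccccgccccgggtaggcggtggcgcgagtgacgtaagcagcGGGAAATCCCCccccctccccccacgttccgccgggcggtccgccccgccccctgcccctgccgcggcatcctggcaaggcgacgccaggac
Nfkb2 (chr19:46304487-46304736, plus strand): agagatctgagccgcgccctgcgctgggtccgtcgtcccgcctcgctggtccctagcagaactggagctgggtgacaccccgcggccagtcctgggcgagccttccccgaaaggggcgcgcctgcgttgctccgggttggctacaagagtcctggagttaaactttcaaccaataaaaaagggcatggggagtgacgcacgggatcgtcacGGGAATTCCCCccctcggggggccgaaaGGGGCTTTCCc
Nfkbia (chr12:55492648-55492897, minus strand): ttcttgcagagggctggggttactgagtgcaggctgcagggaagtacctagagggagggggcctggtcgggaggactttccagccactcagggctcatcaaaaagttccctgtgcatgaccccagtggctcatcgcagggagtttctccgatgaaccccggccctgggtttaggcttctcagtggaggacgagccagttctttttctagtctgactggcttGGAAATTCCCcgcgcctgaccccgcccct
Rela (chr19:5637291-5637540, plus strand): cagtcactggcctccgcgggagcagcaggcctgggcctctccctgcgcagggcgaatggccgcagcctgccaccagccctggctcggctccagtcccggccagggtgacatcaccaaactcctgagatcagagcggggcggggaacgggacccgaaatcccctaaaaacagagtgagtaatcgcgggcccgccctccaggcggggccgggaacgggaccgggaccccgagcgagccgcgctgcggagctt
Nfkbib (chr7:28766645-28766894, minus strand): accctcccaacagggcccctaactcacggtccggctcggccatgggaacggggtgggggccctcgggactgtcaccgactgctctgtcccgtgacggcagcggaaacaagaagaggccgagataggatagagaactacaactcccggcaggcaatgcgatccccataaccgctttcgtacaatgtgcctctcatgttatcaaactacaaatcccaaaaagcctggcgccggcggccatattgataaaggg
The match began 92 bases before the start in Rel and 29 bases before it in Nfkbia, and those of Nfkb2 began 39 and 11 bases before it. A match is a run of letters and no evidence of binding, and a window without one says only that these letters are not in it.

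At rest the 10 genes covered a wide range of levels, compared here as CPM per kilobase of exon. Nfkbia stood far above the rest, at 79.2 ± 2.23 CPM per kb in KO and 70.3 ± 1.78 in WT at 0 h (SD, n = 3 each). Nfkbiz was the lowest, at 0.988 ± 0.364 in KO and 1.13 ± 0.758 in WT. Between them, Nfkbie, Nfkb2, Rela, Nfkbid and Nfkb1 lay between 12.5 and 18.4 in KO and between 12.4 and 18.3 in WT, and Nfkbie, Nfkb2, Rela and Nfkbid each overlapped their nearest neighbour in the KO order. Nfkbib followed at 7.83 in KO and 7.51 in WT, then Rel at 6.09 and 6.21, then Relb at 4.82 and 5.70. At 12 h Nfkbia was still the highest, at 198 ± 3.48 in KO and 184 ± 11.6 in WT. Nfkbiz had reached 18.0 ± 2.66 in KO and 16.8 ± 2.82 in WT, where its libraries overlapped those of Rel, and Relb had become the lowest at 9.79 ± 0.634 in KO and 11.4 ± 1.42 in WT.

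**Figure D1:**
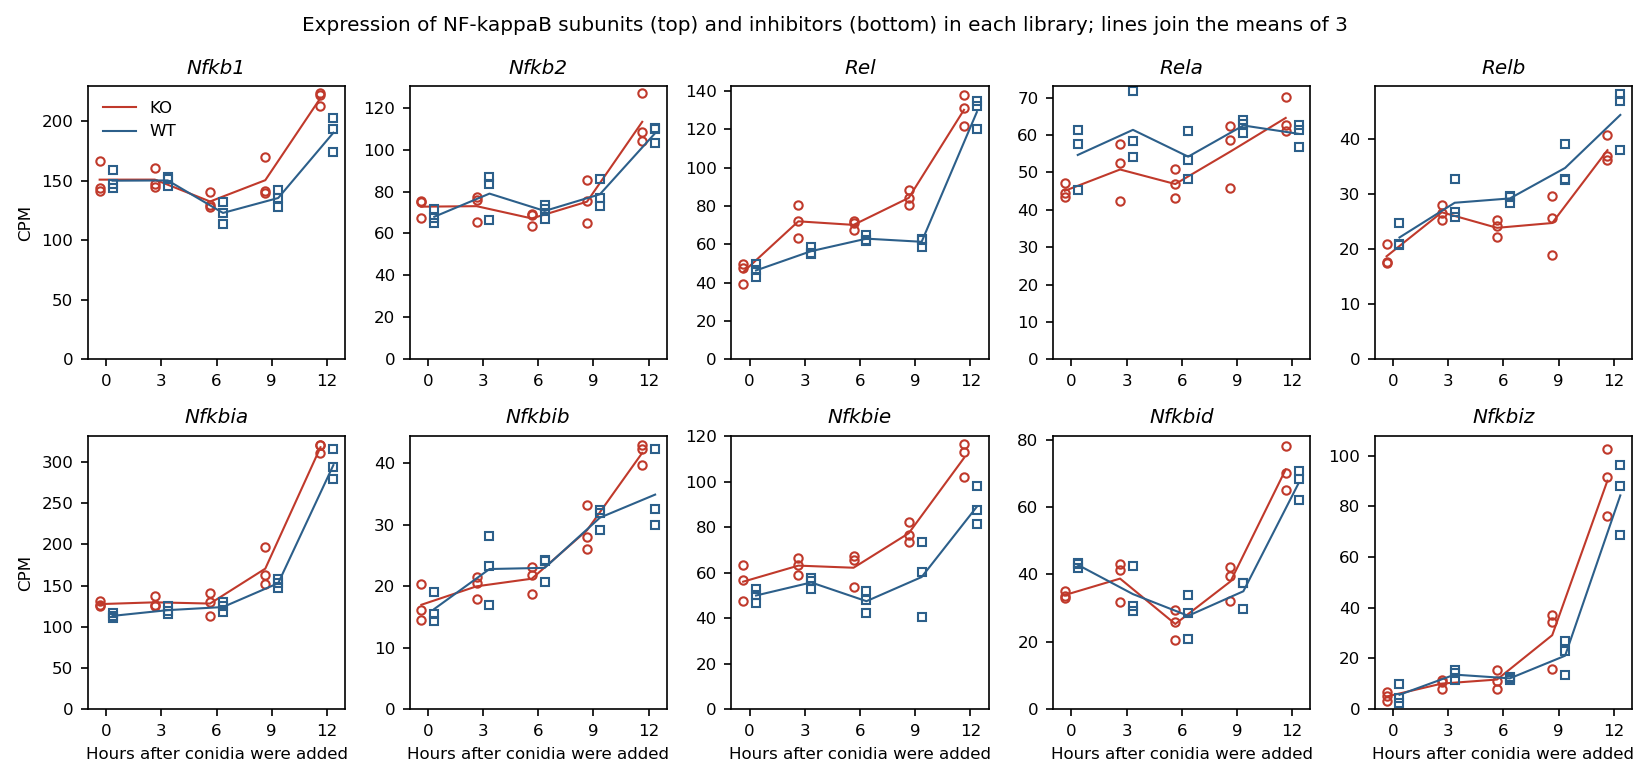
CPM of each gene (vertical axis, from 0, own scale per panel) by hours after conidia were added, in KO (circles) and WT (squares) libraries; lines join the means of 3 libraries. Most genes were near their resting level at 3 and 6 h and highest at 12 h in both genotypes. Rel was already called higher at 3 h in KO and at 6 h in both genotypes. Nfkbiz libraries lay above those of 0 h from 3 h on in both, though not called at 3 or 6 h. Rela changed least at 12 h in WT.

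Most of the set rose after conidia were added, and late. These groups hold no unchallenged cells of 3 h or later, so the fungus and the hours in culture cannot be told apart. In KO cells 1 of the 10 genes was higher than at 0 h after 3 h, 1 after 6 h, 5 after 9 h and 10 after 12 h (edgeR quasi-likelihood test, Benjamini-Hochberg adjusted p under 0.05 over all genes tested). The share of all tested genes that was called higher was 1.03% at 3 h, 3.21% at 6 h, 5.86% at 9 h and 8.13% at 12 h. In WT cells 0 genes were called at 3 h, against 1.02% of all genes called in either direction. An unadjusted p under 0.05 was found for 4 of the 10 and for 1175 of all 12393 tested genes, and DESeq2 called 0 of the 10. After 6 h 3 of the 10 were called in WT, 1 higher and 2 lower, against 5.96% of all genes in either direction. After 9 h 5 and after 12 h 9 of the 10 were higher in WT, against 5.57% and 9.64% of all genes. The median log2 change of the 10 genes at 12 h was 1.04 in KO and 0.92 in WT, while that of all tested genes was -0.005 in KO and 0.003 in WT. The comparisons of a genotype share its 0 h libraries, so they do not count as separate observations.

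**Figure D2:**
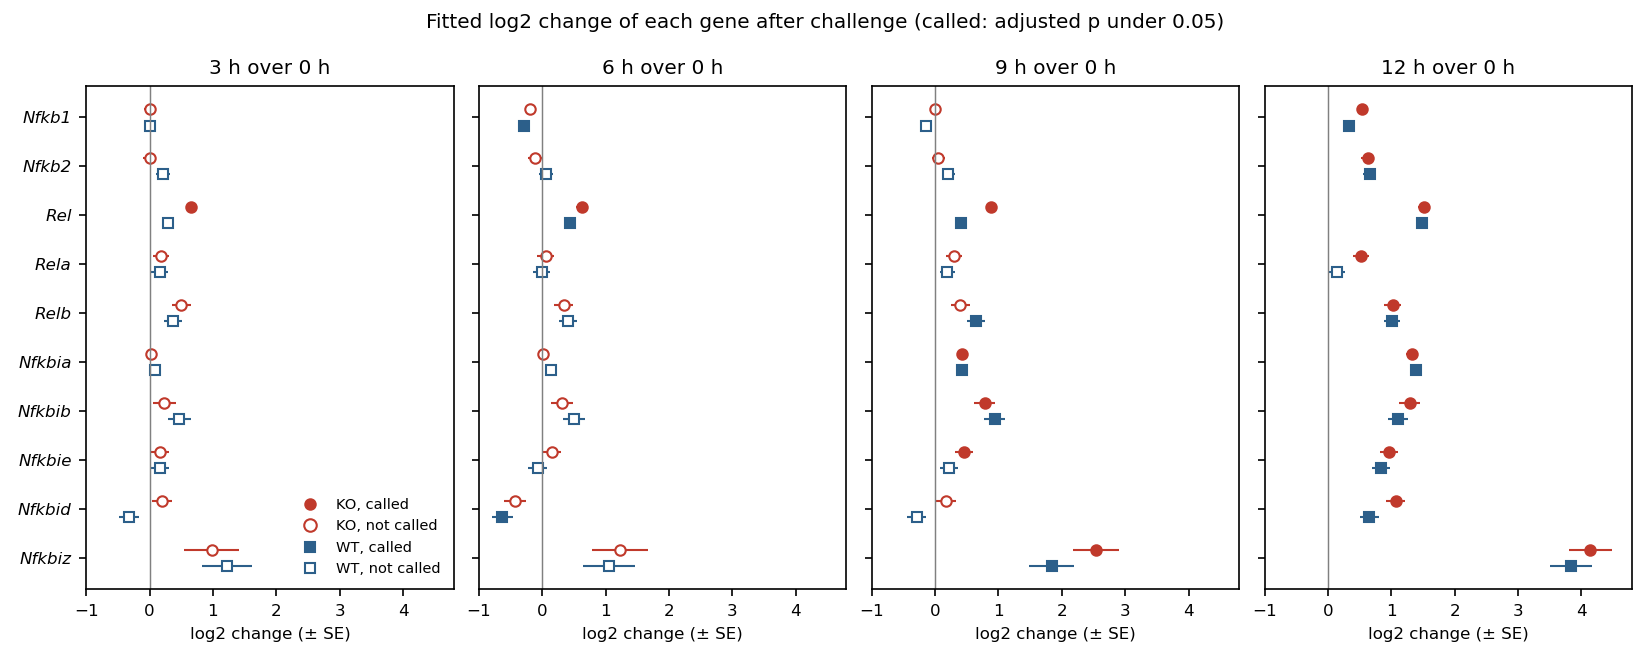
Fitted log2 change (horizontal axis, ± SE) of each gene at 3, 6, 9 and 12 h over 0 h, in KO (circles) and WT (squares); filled symbols have an adjusted p under 0.05. All 10 genes are filled for KO and 9 for WT at 12 h, and Nfkbiz lies farthest to the right at 9 and 12 h.

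Much of the rise fell between 9 and 12 h. In KO cells 8 of the 10 genes were higher at 12 h than at 9 h, against 2.65% of all genes, and in WT cells 7 of the 10, against 5.16%. Rela was called in neither genotype in that interval. Nfkbib in KO, at 0.52 ± 0.15, lay at the threshold (SE, edgeR adjusted p = 0.0507). It was called with DESeq2's size factors (0.0462), with protein-coding genes only (0.0466) and without WT 3 h replicate 1 (0.0384), WT 3 h replicate 3 (0.0395) or WT 12 h replicate 1 (0.0412), and not in DESeq2 or without the count filter. In WT Nfkbib changed by 0.17 ± 0.15 (0.543) and Relb by 0.36 ± 0.13 (0.0692). Relb was called there without KO 9 h replicate 3 (0.0411) or WT 12 h replicate 3 (0.0363). In the KO interval the calls of Nfkbie and Relb were lost when single libraries of 9 or 12 h were left out, with adjusted p up to 0.114 for Nfkbie (without KO 9 h replicate 1) and 0.0746 for Relb (without KO 9 h replicate 3). Both were also lost without the count filter (0.119 and 0.0698), as was Nfkb2 in WT (0.0519). With only the 2 groups fitted, Relb in KO (0.119) and Nfkbie in WT (0.0985) were lost. The small RNA share of the WT libraries fell in the same interval, to 3.92 ± 0.092% at 12 h against 6.15 ± 0.522% at 9 h (SD, n = 3 each). With that share as a covariate, an alternative added after seeing the data, 3 instead of 9 genes were called at 12 h over 0 h in WT (Rel, Nfkbia and Nfkbiz) and 1 instead of 7 over 9 h (Rel). Over all tested genes the calls fell to 212 with the covariate, against 2245 without it, at 12 h over 0 h in WT, and to 39 against 1305 over 9 h. The share separated the WT libraries of 12 h from those of 0 and 9 h, so this fit cannot tell the share from the hours. At 12 h over 0 h in WT the log2 changes with the covariate were 0.40 ± 0.17 for Nfkb1, 0.60 ± 0.23 for Nfkb2, 0.91 ± 0.31 for Relb and 1.28 ± 0.36 for Nfkbib. Without it they were 0.34 ± 0.08, 0.66 ± 0.10, 1.01 ± 0.13 and 1.11 ± 0.16, so the estimates were close and the errors wider with it. Those of Nfkbie and Nfkbid were 0.59 ± 0.31 and 0.28 ± 0.34 with it, against 0.84 ± 0.14 and 0.65 ± 0.15 without it. In KO, where the share was 3.33 ± 0.177% at 12 h and 3.42 ± 0.078% at 0 h, all 10 were called with it too.

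Rel (ENSMUSG00000020275, chr11:23736847-23770970, GRCm38) encodes c-Rel, a subunit with a transactivation domain that is prominent in lymphoid and antigen-presenting cells, where it is known to drive Il12b and Il23a. In KO libraries it had 49.6, 47.6, 39.3 CPM at 0 h, 72.2, 63.5, 80.4 CPM at 3 h, 72.1, 67.2, 71.05 CPM at 6 h, 80.4, 83.9, 88.4 CPM at 9 h, and 138, 131, 122 CPM at 12 h. In WT libraries it had 42.7, 49.9, 46.5 CPM at 0 h, 55.4, 55.1, 58.8 CPM at 3 h, 61.97, 64.8, 62.1 CPM at 6 h, 63.02, 58.7, 62.2 CPM at 9 h, and 132, 120.4, 135 CPM at 12 h. Within each genotype the libraries of 3 h and later lay above those of 0 h without overlap, and the 12 h libraries lay above all others. Rel was called higher in KO at every time, by 0.66 ± 0.09 at 3 h, 0.62 ± 0.09 at 6 h, 0.89 ± 0.09 at 9 h and 1.52 ± 0.09 at 12 h on the log2 scale (SE; edgeR adjusted p = 6.75e-05, 4.77e-05, 4.26e-08 and 4.15e-13). At 3 h the call was lost when only the KO 3 h and KO 0 h libraries were fitted, at an adjusted p of 0.0777. In WT the log2 change was 0.29 ± 0.09 at 3 h, which was not called (adjusted p = 0.259), then 0.44 ± 0.09, 0.41 ± 0.09 and 1.48 ± 0.09 at 6, 9 and 12 h, which were (edgeR adjusted p = 0.00222, 0.00266 and 4.89e-13).

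Rel also differed between the genotypes at 2 of the 5 times. It was higher in KO at 3 h by 0.35 ± 0.09 and at 9 h by 0.46 ± 0.08 on the log2 scale (SE, edgeR adjusted p = 0.0145 and 0.000852), with no overlap of the 3 KO and the 3 WT libraries at either time. The 3 h call was lost without KO 3 h replicate 3 (adjusted p = 0.165), WT 3 h replicate 1 (0.0694) or WT 3 h replicate 2 (0.0599), and DESeq2 did not make it (0.0836), nor did the fits without the count filter (0.169) or with only the 2 groups (0.107). The 9 h call held without any single library, with an adjusted p of at most 0.00795, and DESeq2 made it too. At 0, 6 and 12 h the log2 differences were -0.03 ± 0.09, 0.16 ± 0.09 and 0.01 ± 0.08, none of which was called. The 12 h difference had a 95% interval of -0.15 to 0.18.

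Whether the time course of Rel itself differed was tested with an interaction term over all times. It gave an adjusted p of 0.0921 (unadjusted 0.00157) and thus missed the threshold; without KO 3 h replicate 2 it was 0.0459. The change from 0 to 9 h was larger in KO by 0.48 ± 0.13 on the log2 scale (95% interval 0.22 to 0.74, edgeR adjusted p = 0.286). The change from 0 to 12 h differed by 0.04 ± 0.12 (95% interval -0.21 to 0.29). Of the 10 genes 0 passed the interaction test, 0 the test of the 9 h change and 0 that of the 12 h change by edgeR or by DESeq2, and 1, 2 and 1 had an unadjusted p under 0.05. Of all 12393 tested genes 0.888%, 0.105% and 0.726% passed these tests, and 1437, 805 and 1475 had an unadjusted p under 0.05.

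Rela (ENSMUSG00000024927, chr19:5637483-5648130) encodes p65, the transactivating subunit of the most studied dimer. It had the smallest log2 change of the set at 12 h in WT. In KO its change could not be told from that of Nfkb1 within the errors (0.52 ± 0.13 and 0.54 ± 0.08, SE). Rela had 44.6, 43.5, 47.3 CPM at 0 h, 42.4, 57.5, 52.5 CPM at 3 h, 50.8, 43.1, 46.8 CPM at 6 h, 45.8, 58.6, 62.4 CPM at 9 h, and 61.02, 70.2, 62.6 CPM at 12 h in KO. In WT it had 57.6, 61.3, 45.2 CPM at 0 h, 54.2, 58.4, 71.7 CPM at 3 h, 61.1, 53.4, 48.2 CPM at 6 h, 63.02, 60.7, 64.03 CPM at 9 h, and 62.8, 61.3, 56.9 CPM at 12 h. The WT libraries of 12 h overlapped those of 0 h, whereas the KO libraries of 12 h lay above those of 0 h. Its log2 change at 12 h was 0.52 ± 0.13 in KO (SE, edgeR adjusted p = 0.006), which fell just outside the threshold without KO 12 h replicate 2 (0.0502), and 0.14 ± 0.13 in WT (adjusted p = 0.485). The difference between these changes was 0.38 ± 0.18 and was not called (adjusted p = 0.407). At 9 h Rela was not called in KO with all libraries and was called without KO 9 h replicate 1 (0.43, adjusted p = 0.0492).

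As Rel changed more than Rela, the ratio of the transcripts shifted within the libraries. Rel over Rela, both per kilobase, was 0.929, 0.769 and 0.8004 in KO at 12 h, against 0.458, 0.4505 and 0.342 at 0 h. In WT it was 0.865, 0.808 and 0.974 at 12 h, against 0.305, 0.335 and 0.423 at 0 h. No 12 h library overlapped a 0 h library of its genotype. At 9 h the ratio was 0.722, 0.589 and 0.583 in KO and 0.411, 0.398 and 0.3999 in WT, again without overlap. Nfkbia over Rela moved in the same way at 12 h and averaged 9.44 ± 0.844 in KO and 9.37 ± 0.236 in WT, against 5.40 ± 0.342 in KO and 4.02 ± 0.647 in WT at 0 h (SD, n = 3 each).

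**Figure D3:**
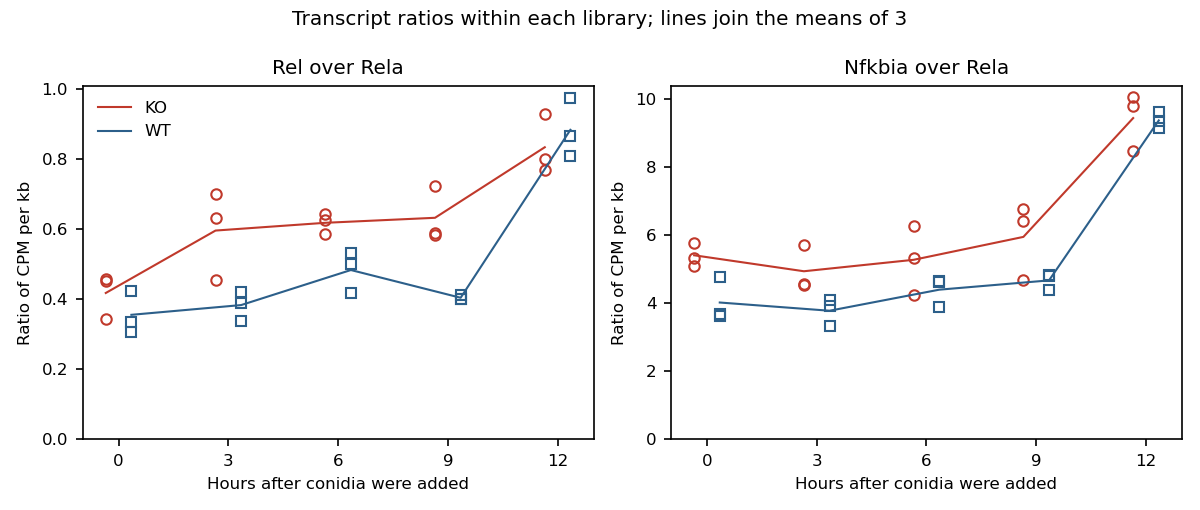
Ratio of CPM per kb of Rel to Rela (left) and of Nfkbia to Rela (right), both from 0, by hours after conidia were added; circles are KO libraries, squares WT libraries and lines join the means of 3. Rel over Rela was higher in all KO than in all WT libraries at 3, 6 and 9 h, and both ratios were highest at 12 h in both genotypes.

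Relb (ENSMUSG00000002983, chr7:19606217-19629438) encodes a subunit that pairs mainly with the products of Nfkb2 in the noncanonical branch and is needed for dendritic cell development. It had 17.5, 20.99, 17.7 CPM at 0 h, 28.1, 25.4, 26.6 CPM at 3 h, 25.4, 24.1, 22.1 CPM at 6 h, 25.7, 29.7, 19.00 CPM at 9 h, and 37.05, 40.8, 36.2 CPM at 12 h in KO. In WT it had 24.7, 20.98, 20.7 CPM at 0 h, 32.7, 25.9, 26.7 CPM at 3 h, 29.7, 28.4, 29.6 CPM at 6 h, 32.5, 32.8, 39.1 CPM at 9 h, and 48.2, 47.05, 38.1 CPM at 12 h. Its level at 12 h was 2.02-fold that at 0 h in KO and 2.01-fold in WT, log2 changes of 1.02 ± 0.14 and 1.01 ± 0.13 (SE, edgeR adjusted p = 7.3e-06 and 3.3e-06). At 9 h it was called in WT (0.65 ± 0.14, adjusted p = 0.00189) and not in KO (0.40 ± 0.15, adjusted p = 0.0852), where replicate 3 was the lowest library and the change was 0.57 without it (adjusted p = 0.018). The difference between these changes was -0.24 ± 0.20 (adjusted p = 0.947). Relb was lower in KO than in WT at 9 h by -0.48 ± 0.13 (edgeR adjusted p = 0.0311), a call that was not made by DESeq2 (0.123), without the count filter (0.0619) or with only the 2 groups fitted (0.197) and that was lost without KO 9 h replicate 1 (0.0663) or 3 (0.221) or WT 9 h replicate 2 (0.0579) or 3 (0.185).

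Nfkb1 (ENSMUSG00000028163, chr3:135584655-135691547) and Nfkb2 (ENSMUSG00000025225, chr19:46304320-46312385) encode the precursors p105 and p100, which act as inhibitors until they are processed to the DNA-binding subunits p50 and p52. Nfkb1 had 213, 224 and 222 CPM in KO at 12 h, against 144, 142 and 166.5 CPM at 0 h. In WT it had 203, 174 and 194 CPM at 12 h, against 158.6, 144 and 147 CPM at 0 h. It rose by 0.54 ± 0.08 in KO and 0.34 ± 0.08 in WT on the log2 scale (SE, edgeR adjusted p = 9.03e-06 and 0.00204). At 6 h it was lower than at rest in WT by -0.29 ± 0.08 (adjusted p = 0.0259), at 123, 132 and 113 CPM. This call was lost without WT 6 h replicate 3 (0.154), WT 6 h replicate 1 (0.0688) or WT 0 h replicate 1 (0.13) and with only the 2 groups fitted (0.0609). DESeq2 did not make it (0.0622), and it was lost without the count filter (0.106) and with the small RNA share as a covariate (0.1). The KO change at 6 h was -0.19 ± 0.08 (adjusted p = 0.199).

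Nfkb2 reached 104, 108 and 127 CPM in KO at 12 h, against 67.6, 75.7 and 75.1 CPM at 0 h. In WT it reached 110.4, 103 and 109.7 CPM at 12 h, against 71.7, 65.03 and 67.2 CPM at 0 h. The rise was 0.63 ± 0.10 in KO and 0.66 ± 0.10 in WT on the log2 scale (SE, edgeR adjusted p = 5.25e-05 and 2.1e-05), and neither genotype was called before 12 h. The gene shares 299 exonic bases with Psd on the opposite strand, which had 5 to 29 counts, and it is not stated whether the counting used strand.

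Nfkbia (ENSMUSG00000021025, chr12:55489410-55492647) encodes IkappaBalpha, the classical inhibitor that is degraded within minutes of signalling and then made again as an NF-kappaB target. KO libraries had 125, 131.5, 126 CPM at 0 h, 127, 138, 125 CPM at 3 h, 112.5, 142, 130.4 CPM at 6 h, 162.5, 197, 152 CPM at 9 h, and 321, 312, 321 CPM at 12 h. WT libraries had 110.5, 116, 113 CPM at 0 h, 116, 119.5, 125 CPM at 3 h, 125, 129.5, 117.5 CPM at 6 h, 158, 153.5, 147 CPM at 9 h, and 316, 293, 279 CPM at 12 h. Every 12 h library stood above every library of the earlier times. Nfkbia was called in both genotypes at 9 h, by 0.42 ± 0.08 in KO and 0.43 ± 0.08 in WT, and at 12 h by 1.32 ± 0.08 and 1.39 ± 0.08 on the log2 scale (SE; edgeR adjusted p = 0.000397 and 0.000314 at 9 h, 5.15e-13 and 1.86e-13 at 12 h). The KO and WT changes differed by -0.01 ± 0.11 at 9 h and -0.07 ± 0.11 at 12 h, with a 95% interval at 12 h of -0.29 to 0.15.

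Nfkbib (ENSMUSG00000030595, chr7:28758251-28767512), which encodes IkappaBbeta, an inhibitor that is degraded more slowly, was higher at 9 h and 12 h in both genotypes. It had 39.7, 42.4 and 43.04 CPM in KO at 12 h, against 14.5, 16.1 and 20.3 CPM at 0 h. In WT it had 42.3, 32.5 and 29.9 CPM at 12 h, against 15.5, 14.3 and 19.1 CPM at 0 h. Its log2 change was 0.78 ± 0.17 in KO and 0.94 ± 0.17 in WT at 9 h, and 1.29 ± 0.17 and 1.11 ± 0.16 at 12 h (SE; edgeR adjusted p = 0.0025, 0.000274, 1.83e-06 and 1.43e-05). From 9 to 12 h WT gained 0.17 ± 0.15 in Nfkbib (adjusted p = 0.543), against 0.96 ± 0.07 in Nfkbia (4.63e-10). Nfkbib overlaps exons of Sirt2 (42 bases) and Ccer2 (314 bases) on the opposite strand, which had 64 to 174 and 0 to 6 counts, so part of its counts is uncertain.

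Nfkbie (ENSMUSG00000023947, chr17:45555703-45563169) encodes IkappaBepsilon, an inhibitor made with some delay that preferentially holds dimers with c-Rel and p65. KO libraries had 47.6, 56.96, 63.6 CPM at 0 h, 59.1, 66.7, 63.5 CPM at 3 h, 53.7, 67.2, 65.6 CPM at 6 h, 73.6, 82.1, 76.4 CPM at 9 h, and 113, 102, 116 CPM at 12 h. WT libraries had 50.1, 52.9, 46.9 CPM at 0 h, 57.8, 52.97, 56.4 CPM at 3 h, 47.96, 42.4, 51.98 CPM at 6 h, 60.3, 40.6, 73.4 CPM at 9 h, and 97.98, 87.6, 81.5 CPM at 12 h. It reached 0.97 ± 0.14 in KO and 0.84 ± 0.14 in WT on the log2 scale at 12 h (SE, edgeR adjusted p = 8.28e-06 and 6.36e-05). The KO change at 9 h, 0.46 ± 0.14 (adjusted p = 0.0317), was lost without KO 0 h replicate 1 (0.147) or 2 (0.0726) or KO 9 h replicate 2 (0.122) or 3 (0.0564) and without the count filter (0.0943). The WT change at 9 h was 0.22 ± 0.14, not called with all libraries (adjusted p = 0.401) and called without WT 9 h replicate 2, its lowest library (0.43, adjusted p = 0.0245).

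Nfkbid (ENSMUSG00000036931, chr7:30421732-30428746) and Nfkbiz (ENSMUSG00000035356, chr16:55811375-55838899) encode the nuclear proteins IkappaBNS and IkappaBzeta, which modulate NF-kappaB at promoters; IkappaBzeta is known as an inducible coactivator of Il6 and Lcn2. Nfkbiz had the largest fold changes of the set. KO libraries had 3.003, 5.25, 6.62 CPM at 0 h, 11.4, 8.11, 10.7 CPM at 3 h, 8.08, 15.6, 11.3 CPM at 6 h, 34.6, 37.3, 15.7 CPM at 9 h, and 103, 76.2, 91.5 CPM at 12 h. WT libraries had 9.89, 2.52, 4.56 CPM at 0 h, 14.1, 11.4, 15.3 CPM at 3 h, 11.5, 12.7, 12.3 CPM at 6 h, 22.8, 13.6, 26.8 CPM at 9 h, and 96.3, 68.7, 88.03 CPM at 12 h. The lowest libraries held 6 counts, so the resting level is imprecise, but all 9 h and 12 h libraries lay above all 0 h libraries of their genotype. Its log2 change was 2.54 ± 0.37 in KO and 1.84 ± 0.36 in WT at 9 h, and 4.14 ± 0.34 and 3.84 ± 0.33 at 12 h, a 17.7-fold and a 14.3-fold rise (SE; edgeR adjusted p = 2.4e-05 and 0.000998 at 9 h, 1.11e-09 and 1.81e-09 at 12 h). The WT values moved with WT 0 h replicate 1, the highest library at rest. Without it the WT changes were 2.56 ± 0.43 at 9 h and 4.56 ± 0.38 at 12 h (adjusted p = 0.000204 and 2.63e-09). The rise at 12 h was then 23.6-fold, above that of KO. The WT change at 6 h, 1.05 ± 0.41 (adjusted p = 0.15), was 1.76 and called without the same library (adjusted p = 0.0305). With the small RNA share as a covariate the WT change at 12 h was 3.15 ± 0.70, an 8.89-fold rise (adjusted p = 0.0143).

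Nfkbid was the one inhibitor called lower than at 0 h at any time. In KO it had 35.04, 32.98, 33.6 CPM at 0 h, 31.8, 43.04, 41.4 CPM at 3 h, 25.97, 29.4, 20.5 CPM at 6 h, 42.1, 39.4, 32.2 CPM at 9 h, and 70.2, 65.1, 78.3 CPM at 12 h. In WT it had 43.4, 41.95, 43.1 CPM at 0 h, 30.7, 29.2, 42.5 CPM at 3 h, 33.95, 28.4, 20.7 CPM at 6 h, 37.5, 29.8, 37.6 CPM at 9 h, and 70.6, 62.2, 68.4 CPM at 12 h. Its log2 change at 6 h was -0.43 ± 0.17 in KO, which was not called, and -0.63 ± 0.16 in WT, which was (SE, edgeR adjusted p = 0.167 and 0.0181). The 6 h libraries lay below the 0 h libraries in both genotypes without overlap. The WT call at 6 h was lost without WT 0 h replicate 1 (0.0552), WT 6 h replicate 2 (0.0514) or WT 6 h replicate 3 (0.143), with only the 2 groups fitted (0.0593) and with the small RNA share as a covariate (0.243). Summed neutrophil markers were highest at 6 h, at 534 to 541 CPM in KO and 637 to 975 CPM in WT, against 220.0 to 268 CPM and 375 to 412 CPM at 0 h, and their part in this result was not tested. At 12 h Nfkbid was higher by 1.07 ± 0.15 in KO and 0.65 ± 0.15 in WT (edgeR adjusted p = 9.63e-06 and 0.00225), and these changes differed by 0.42 ± 0.21 (adjusted p = 0.442).

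Between the genotypes, individual genes of the set differed by small amounts. At 0 h 0 of the 10 genes were called between KO and WT, against 5.02% of all genes; at 3 h 1 was called (Rel higher), against 6.92%; at 6 h 0, against 5.78%; at 9 h 2 (Rel higher, Relb lower), against 5.06%; and at 12 h 0, against 1.9%. At 0, 6 and 12 h 3, 1 and 2 genes had an unadjusted p under 0.05 in edgeR, against 2132, 2285 and 1418 of all 12393 tested genes. DESeq2 called 0 of the 10 at each of these times. Averaged over the 5 times, 6 of the 10 were called, against 24.9% of all genes. Rel (0.19 ± 0.04), Nfkbie (0.29 ± 0.06), Nfkbia (0.12 ± 0.03) and Nfkb1 (0.10 ± 0.03) were higher in KO, and Relb (-0.27 ± 0.06) and Rela (-0.17 ± 0.06) were lower, on the log2 scale (SE; edgeR adjusted p = 0.000606, 0.00103, 0.0125, 0.044, 0.00216 and 0.0346). The calls of Rel, Nfkbie and Relb held without any single library, in DESeq2 and without the count filter. That of Nfkbia held without any single library and in DESeq2 and was lost without the count filter (0.07, adjusted p = 0.444). That of Nfkb1 was lost without the count filter (0.04, adjusted p = 0.788), in DESeq2 (0.0753), with protein-coding genes only (0.0773) and with a replicate block (0.0539). That of Rela was lost in DESeq2 (0.0735). The count was 4 of the 10 both without the filter and in DESeq2. The Nfkb1 call was lost for most of the single libraries left out, with adjusted p up to 0.114 (without KO 9 h replicate 2). That of Rela was lost for fewer, in both genotypes, with adjusted p up to 0.0651 (without WT 3 h replicate 3). Nfkbie was higher in KO by 0.41 ± 0.14 at 9 h and 0.39 ± 0.15 at 6 h, neither of which was called (adjusted p = 0.0828 and 0.124). The 9 h difference was called without WT 9 h replicate 3 (0.63, adjusted p = 0.00676) and the 6 h difference without WT 9 h replicate 2 (adjusted p = 0.0387). Nfkb2, Nfkbib, Nfkbid and Nfkbiz had mean differences between -0.03 and -0.02.

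The genotypes also differed in other measures of the libraries. The macrophage and neutrophil marker sums and the small RNA share given above were lower in KO than in WT at every time, without overlap of the libraries of a time. The dendritic cell marker sum was higher in KO than in WT at 6, 9 and 12 h without overlap, and overlapped at 0 and 3 h. With the small RNA share as a covariate 0 of the 10 genes were called for the mean difference, at 3 h or at 9 h. The calls over all genes fell to 4, 1 and 0, against 3082, 857 and 627 without it. As the share separated the genotypes at every time, a fit with it cannot tell the share from the genotype. Wider errors and fewer calls follow from that design. For the mean difference the standard errors of the 10 genes were 0.18 to 0.74 with the share, against 0.03 to 0.16 without it. The estimates for Rel were then 0.38 ± 0.28 at 3 h and 0.48 ± 0.26 at 9 h, close to those without it but with larger standard errors, which were 0.09 and 0.08 without it. Those for Rela, Nfkbia and Nfkbie changed sign in the mean, at 0.09 ± 0.30, -0.09 ± 0.18 and -0.00089 ± 0.33, each smaller than its standard error. The part of the marker genes' cells in these differences was not tested.

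**Figure D4:**
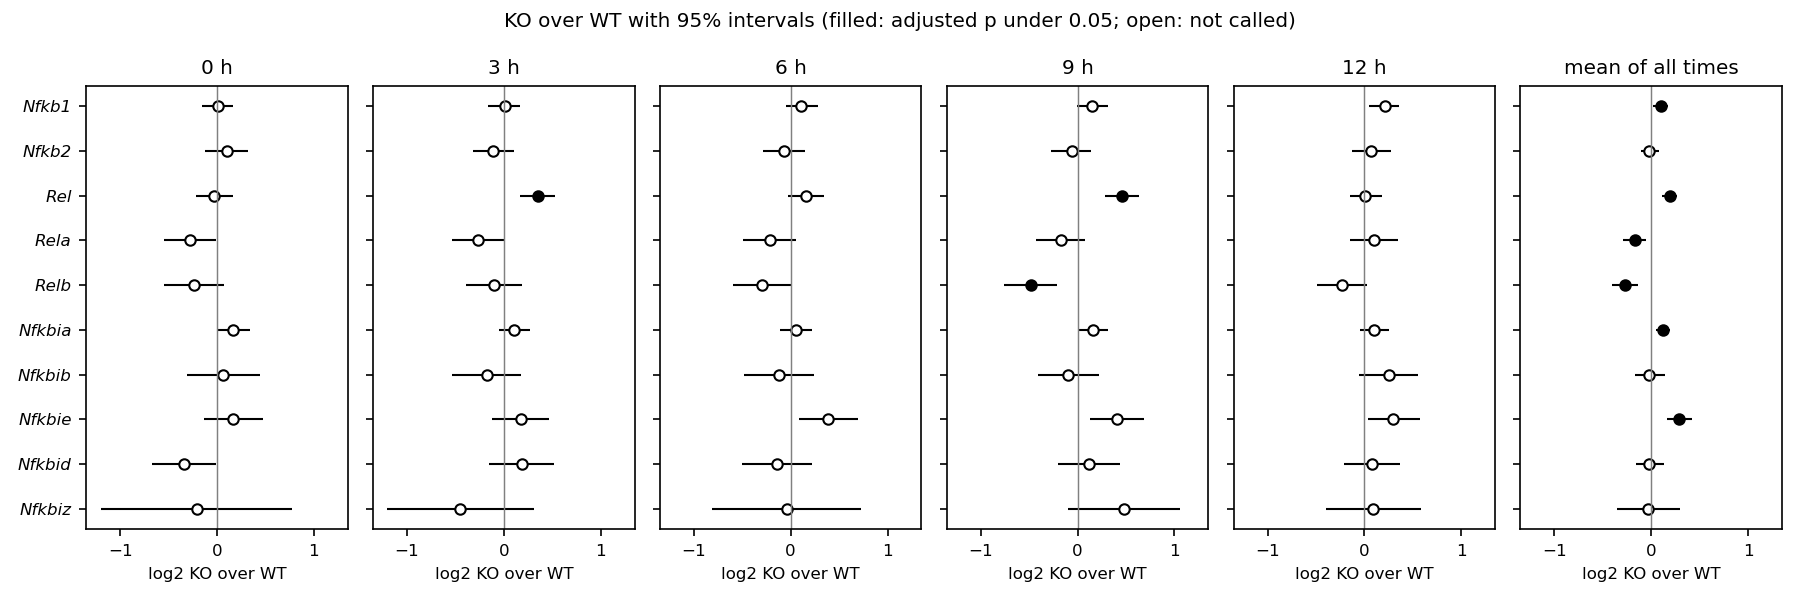
Log2 difference of KO over WT (horizontal axis) with 95% intervals for each gene at 0, 3, 6, 9 and 12 h and for the mean of all times; filled points have an adjusted p under 0.05. Rel is filled to the right of 0 at 3 and 9 h, Relb to the left at 9 h, and no gene is filled at 0, 6 or 12 h.

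The authors' deposited table for KO at 12 h listed 9 of the 10 genes as changed from 0 h (not Rela), among 528 genes. That for WT at 12 h listed 8 (not Nfkb1 or Rela), among 743 genes. At 9 h the authors' deposited table listed Nfkbiz (log2 2.55) and Rel (0.892) for KO, among 369 genes. For WT Nfkbiz (1.87) and Nfkbib (0.93) were listed, among 370 genes. In the authors' deposited tables for 3 and 6 h, and in those comparing the genotypes at each time, 0 of the 10 genes were listed. The tables for 3 and 6 h held 33 to 160 genes, and those comparing the genotypes 68 to 193. With so few genes listed, the absence of the 10 says little about them.

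The wider pathway was described from lists of genes that act above, beside and below the subunits. Of 30 kinases, ligases and adaptors upstream, 10 were higher and 1 lower at 12 h over 0 h in KO, and 7 higher and 1 lower in WT, with median log2 changes of 0.11 and 0.18. That is 33.3% of the list higher in KO and 23.3% in WT, against 8.13% and 9.64% of all genes. The shares of all genes that were lower were 6.58% in KO and 8.47% in WT, against 3.33% of the list in each. Malt1, the protease of the CARD9 and BCL10 complex that relays C-type lectin signals, rose by 1.12 ± 0.08 in KO and 0.93 ± 0.08 in WT (SE, edgeR adjusted p = 6.84e-11 and 2.47e-09). Birc3, a ubiquitin ligase of the TNF receptor complex, rose by 0.64 ± 0.12 and 0.61 ± 0.12 (adjusted p = 0.000302 and 0.000428). Irak2, a kinase-like adaptor of Toll-like receptor signalling, rose by 1.03 ± 0.19 in KO (adjusted p = 0.000214) and was at 0.26 ± 0.17 in WT (0.34). Traf3, an adaptor that restrains the noncanonical branch, was at -0.28 ± 0.23 in KO (0.495) and rose by 0.84 ± 0.23 in WT (0.0115). The KO and WT changes differed by 0.78 ± 0.25 for Irak2 and -1.13 ± 0.33 for Traf3, neither of which was called (adjusted p = 0.172 and 0.118). The adaptor Myd88 fell by 0.46 in KO and fell by 0.41 in WT (SE 0.14 and 0.13, adjusted p = 0.025 and 0.0309).

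Of 15 other inhibitory genes, 7 were higher and 2 lower in KO at 12 h, and 6 higher and 0 lower in WT, with median log2 changes of 0.41 and 0.18. The higher genes were 46.7% of the list in KO and 40% in WT, against the same 8.13% and 9.64% of all genes. Tnfaip3, which encodes the ubiquitin-editing inhibitor A20, rose by 2.08 ± 0.16 in KO and 1.87 ± 0.16 in WT (SE, edgeR adjusted p = 1.04e-09 and 5.37e-09). Traf1, an adaptor of TNF receptor signalling, rose by 2.03 ± 0.17 and 1.53 ± 0.17 (adjusted p = 9.32e-10 and 2.46e-07). Pdlim2, a ligase that marks nuclear p65 for degradation, and Commd1, which promotes its ubiquitination, were the 2 that fell in KO, by -1.83 ± 0.57 and -0.53 ± 0.16 (adjusted p = 0.0292 and 0.0235). In WT they were at -1.04 ± 0.46 and -0.13 ± 0.16, which was not called (0.123 and 0.624). Their KO and WT changes differed by -0.8 ± 0.73 and -0.4 ± 0.22, which was not called either (0.767 and 0.512).

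Of 28 textbook targets 26 were tested, and 21 were higher and 0 lower at 12 h in both KO and WT. That is 80.8% of those tested, against 8.13% of all genes higher in KO and 9.64% in WT. Median log2 changes of the targets were 1.87 in KO and 2.03 in WT. Ptgs2, the inducible cyclooxygenase, rose by 5.83 ± 0.26 in KO and 5.40 ± 0.26 in WT, and Cxcl1, a neutrophil chemokine, by 4.88 ± 0.25 and 5.18 ± 0.25 (SE; edgeR adjusted p = 8.85e-15, 4.56e-14, 3.65e-14 and 1.28e-14). For the mean difference of KO over WT, 4 upstream genes were higher and 1 lower, 5 inhibitory genes higher and 1 lower, and 10 targets higher and 4 lower. In either direction that is 16.7% of the upstream, 40% of the inhibitory and 53.8% of the target genes, against 24.9% of all genes (12.6% higher and 12.2% lower). The upstream list lay below the share of all genes. The interleukin 1 gene Il1b was higher in KO by 0.74 ± 0.05, Btrc, which encodes a part of the ligase that marks IkappaB proteins, by 0.45 ± 0.09, and Lcn2, a siderophore-binding protein of neutrophil granules, was lower by -0.54 ± 0.06 (SE; edgeR adjusted p = 2.58e-12, 0.000711 and 7.86e-08). The summed neutrophil markers were also lower in KO at each time, and their part in the Lcn2 value was not tested.

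**Figure D5:**
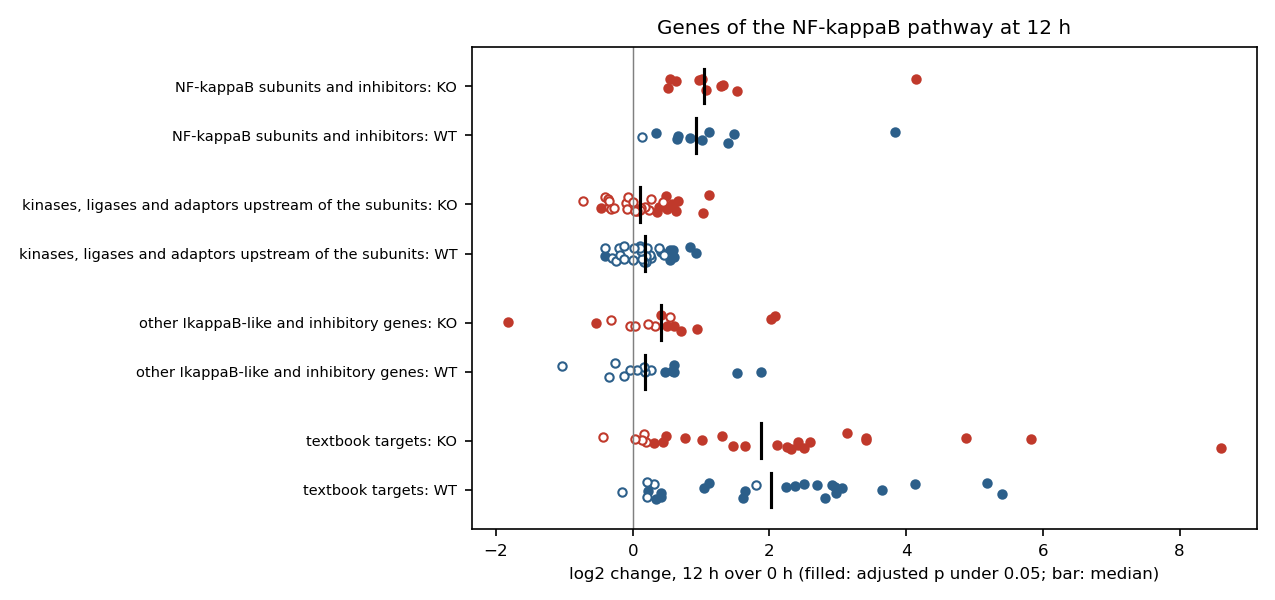
Fitted log2 change at 12 h over 0 h (horizontal axis) of each tested gene of the 10-gene set and of the 3 pathway lists, with KO above WT for each; filled points have an adjusted p under 0.05 and bars mark medians. The targets lie farthest to the right, with medians of 1.87 and 2.03, followed by the subunits and inhibitors at 1.04 and 0.92, and the upstream genes centre near 0.

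Across the 10 group means, the genes of the set followed one another to different degrees. As a description over 10 points that share libraries by genotype and time, Pearson's r of log2 levels was highest for Nfkbib with Nfkbiz (0.96), Rel with Nfkbiz (0.95) and Nfkb2 with Nfkbia (0.95), and lowest for Rela with Nfkbie (0.44) and Nfkb1 with Rela (0.49). Among genes outside the set with a mean of at least 5 CPM, the pattern of Nfkbia was closest to that of Slfn2 (0.99) and Tnf (0.988), and that of Nfkbie to Malt1 (0.991). Rel was closest to Ifrd1 (0.984), Nfkb1 to Serpinb2 (0.985), Nfkb2 to Cd14 (0.986), Nfkbib to Helz2 (0.981) and Relb to Cytip (0.954). Nfkbiz was closest to the annotated locus AC166110.4 (0.996) and then to Cxcl2 (0.995), Nfkbid to Serpinb2 (0.947), and Rela to Efhd2 (0.933).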

How the data were processed

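30 TruSeq Stranded mRNA libraries were sequenced on a NextSeq, per the labels' protocols. Trimmomatic 0.35, HISAT2, StringTie, DESeq2 and the build GRCm38 are named in the submitters' processing notes. Neither the way the counts were taken nor the strand setting is stated there. The deposited table gives whole-number counts per Ensembl gene, taken as the authors' raw counts from these values. The authors' deposited tables of 13 comparisons give log2 fold changes and p-values, per the file headers, and list only genes under an adjusted p of 0.05. The mean normalized signal in these deposited tables was not used.

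Names and coordinates came from GENCODE M21 (54495 of the IDs found, 37 not). Genes were filtered with filterByExpr (minimum count 10), which kept 12393 genes and 98.66% of the counts. With edgeR 4.0.16 (R 4.3.3, TMM scaling) 1 model held all 30 libraries, with a coefficient for each group and 20 residual degrees of freedom, and contrasts were tested by robust quasi-likelihood. Two-sided p-values were Benjamini-Hochberg adjusted across the 12393 genes, and 0.05 was the threshold. CPM values are counts per 1000000 of the TMM-scaled total, and CPM per kb divides by the merged exon length. The common dispersion corresponds to a biological coefficient of variation of 13.7%. No 2 libraries of a group agreed within sampling noise (chi-square per degree of freedom 2.63 to 10.1 over 30 pairs). The script was tested on simulated counts.

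The members, the lists of upstream, inhibitory and target genes and the marker lists were chosen with earlier results of these data known. By rule every member was named in every comparison, the 3 genes of a list with the largest called changes could be named, and so could the genes most like a member by Pearson's r over group means of log2 CPM. Myd88, Commd1 and Lcn2, Birc3 and Traf3 in KO, and Irak2 and Pdlim2 in WT fell outside this rule for the comparisons where they stand. So did the differences between KO and WT changes given for Irak2, Traf3, Pdlim2 and Commd1. All of these were chosen after their values were seen. Alternatives were DESeq2 1.42.0, its size factors in edgeR, no count filter, protein-coding genes only, a replicate block, only the groups compared and leaving out each library; the small RNA share as a covariate was added after seeing the data.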

Additional observations from a re-analysis of the deposited data

How the results depend on the processing

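The 10 calls at 12 h in KO were made under every alternative, except that 9 to 10 were made when 1 library was left out. Counts that moved by more than 1.5 times were as follows. With only the groups compared, 0 members instead of 1 were called at 3 h over 0 h in KO, 1 instead of 3 at 6 h over 0 h in WT, 0 instead of 1 between KO and WT at 3 h and 1 instead of 2 at 9 h. Without the count filter, and with DESeq2, the genotypes gave 0 at 3 h and 1 at 9 h. With the small RNA share as a covariate the counts were 1 at 6 h and 3 instead of 9 at 12 h over 0 h in WT, 1 instead of 7 at 12 h over 9 h in WT, and between KO and WT 0 at 3 h, 0 at 9 h and 0 instead of 6 in the mean of all times, where Rela (0.09), Nfkbia (-0.09) and Nfkbie (-0.00089) changed sign. Over all genes the calls with it were 212 instead of 2245 at 12 h over 0 h and 39 instead of 1305 over 9 h in WT, and at 12 h over 0 h Nfkb1, Nfkb2, Relb and Nfkbib kept folds of similar size with wider errors. The share set the groups of these comparisons apart, so a fit with it cannot tell it from genotype or time, and the cause was not tested. The values that changed sign were each smaller than their standard error. Without any 1 library the counts ranged from 1 to 3 at 6 h in WT, from 0 to 1 between KO and WT at 3 h and at 6 h, from 1 to 2 at 9 h and from 0 to 1 for the interaction. No pairing of the libraries by replicate number was detected. The deviations of 135 same-numbered pairs had a median r of 0.00864 (0 above 0.1), and 11 of the 30 libraries were closest to their own number. A shared animal, culture or day with a small effect may not be seen in this way. Leaving out WT 0 h replicate 1 moved the WT changes of Nfkbiz by over 1.5 times, to a 23.6-fold instead of a 14.3-fold rise at 12 h. The fit with a replicate block lost 1 call, that of Nfkb1 in the mean of KO over WT (0.10, adjusted p = 0.0539). At the median depth a gene at 5 CPM rests on about 12.5 counts, so small changes of Nfkbiz at rest were not detectable.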

Other observations

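At 9 h 5.86% of all tested genes were higher than at 0 h in KO and 5.57% in WT, and 5% and 4.81% were lower. Of 26 tested targets 13 were higher and 1 lower in KO, and 15 higher and 2 lower in WT, so that 50% and 57.7% were higher. Of 30 upstream genes 4 were higher in KO (13.3%) and 1 in WT (3.33%, below the share of all genes), and of 15 inhibitory genes 4 were higher in each genotype (26.7%). The lists were not tested against each other. Median log2 changes at 9 h were 0.56 in KO and 0.62 in WT for the targets and 0.12 and 0.04 for the upstream genes. Nfkb2 over Nfkb1, both per kilobase, averaged 1.36 ± 0.132 in KO and 1.495 ± 0.0635 in WT at 12 h, against 1.28 ± 0.116 in KO and 1.19 ± 0.00659 in WT at 0 h (SD, n = 3 each); its libraries overlapped between 12 h and 0 h in KO and did not in WT.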
